A study of Mus musculus with 23 samples.

Results

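The urea cycle turns ammonia, which is toxic, into urea in hepatocytes. Described here are 9 of the 27179 genes in the count table, matched by symbol. They are *Nags*, *Cps1* and *Otc* (enzymes of the mitochondrial steps), *Ass1* and *Asl* (enzymes of cytosolic steps), *Slc25a15* (the mitochondrial ornithine carrier), and *Gls2*, *Hal* and *Sds* (enzymes that release ammonia from glutamine, histidine and serine). In the liver lobule these genes are most active in periportal hepatocytes, near the incoming blood, whereas pericentral hepatocytes around the central vein take up remaining ammonia through *Glul*, glutamine synthetase. Fasting, glucagon and glucocorticoids are known to raise several of them.

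The study sequenced liver RNA of 15 female mice, from tissue in which no tumour was visible, to ask how an activated *Braf* allele and loss of *Icmt* act on the liver. The 6 Ctrl mice carried wild-type *Braf*, *Trp53* flx/flx and 1 floxed copy of *Icmt* (flx/+). The 6 ABpI F/+ mice carried *Braf*CA/+, *Trp53* flx/flx and *Icmt* flx/+, and the 3 ABpI F/F mice *Braf*CA/+, *Trp53* flx/flx and *Icmt* flx/flx. *Braf*CA is a conditional knock-in of the V600E form of the kinase, and *Icmt* encodes the methyltransferase that finishes the processing of prenylated proteins. Recombination in all groups was driven by Alb-Cre, a Cre under the albumin promoter, so the Ctrl livers too lacked intact *Trp53* in the cells where Cre acted, and cells without Cre kept their alleles. The sample labels read BRAF +/+ for the ABpI F/+ and ABpI F/F mice, whereas the design text gives *Braf*CA/+. The strain labels name a B6 background with the alleles ICMT tm1Mbrg, Trp53tm1Brn and Speer6-ps1Tg(Albcre)21Mgn, with Zc3h12atm1c and *Braf* (Braftm1WT) as WT. They differ within Ctrl: 5 of the 6 mice have a label of their own, and Ctrl mouse 2 has the longer crossed label that every ABpI F/+ and every ABpI F/F mouse has, which adds Braftm1Mmcm. The labels give no age for any mouse. The ABpI F/F mice differed in age, and which counts belong to which age is not given in the sources used here. The labels list 23 samples for the 15 mice, 8 of which are named by 2 samples, and the counts have 1 column per mouse, so n is the number of mice.

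Libraries held from 24742910 to 32262649 counted reads, and the 9 genes held from 0.363% to 1.13% of them. Levels are given as CPM, counts scaled to a common library size with TMM factors. *Icmt* was between 27.8 and 34.7 CPM in Ctrl mice, between 27.8 and 37.4 in ABpI F/+ mice, and at 15.7, 16.6 and 15.2 in ABpI F/F mice 1, 2 and 3, so every ABpI F/F value lay below every other mouse. *Braf* was at 22.1 ± 4.76 CPM (SD, n = 6 mice) in Ctrl, 26.1 ± 1.99 (n = 6) in ABpI F/+ and 21.4 ± 0.960 (n = 3) in ABpI F/F livers, and *Trp53* between 4.29 and 6.74 in Ctrl, 12.3 and 16.8 in ABpI F/+ and 9.78 and 12.4 in ABpI F/F livers. *Icmt* had a log2 fold change of -0.96 in ABpI F/F livers against Ctrl, and *Trp53* of 1.37 in ABpI F/+ livers and of 0.99 in ABpI F/F livers. Counts over a whole gene do not show whether the floxed exons of *Trp53* were removed or which *Braf* allele was read. *Alb* had at least 76790.0 CPM in each mouse, and none of 9 hepatocyte markers was at 0 in any mouse.

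Each gene was tested by edgeR across the whole table and called if its adjusted p was under 0.01 and its level differed at least 2-fold (log2 fold change of 1 or more in size). In ABpI F/+ livers against Ctrl, 2 of the 9 genes passed: *Sds* rose and *Otc* fell. Of all 27179 genes, 10.0% passed in that comparison, 4.69% upward and 5.35% downward, and of the 9568 genes whose mean reached 5 CPM, as it did for all 9 members, 14.6%. In ABpI F/F livers against Ctrl, 4 of the 9 fell, *Otc*, *Ass1*, *Asl* and *Slc25a15*, and 0 rose. There 6.93% of all genes passed, 4.55% upward and 2.38% downward, and 11.1% of the genes with at least 5 CPM. Between ABpI F/+ and ABpI F/F livers, *Ass1*, *Asl* and *Sds* were higher in ABpI F/+ and 0 were lower, against 7.24% of all genes, 1.76% upward and 5.49% downward, and 8.81% of those with at least 5 CPM. The median log2 fold change of the 9 genes was -0.01, -1.03 and 0.56 in the 3 comparisons, in this order, beside 0.03, -0.06 and 0.10 for genes with at least 5 CPM. Both comparisons against Ctrl share the 6 Ctrl mice. In RNA from whole liver, fewer cells that express a gene and less RNA per cell cannot be told apart.

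**Figure D1:**
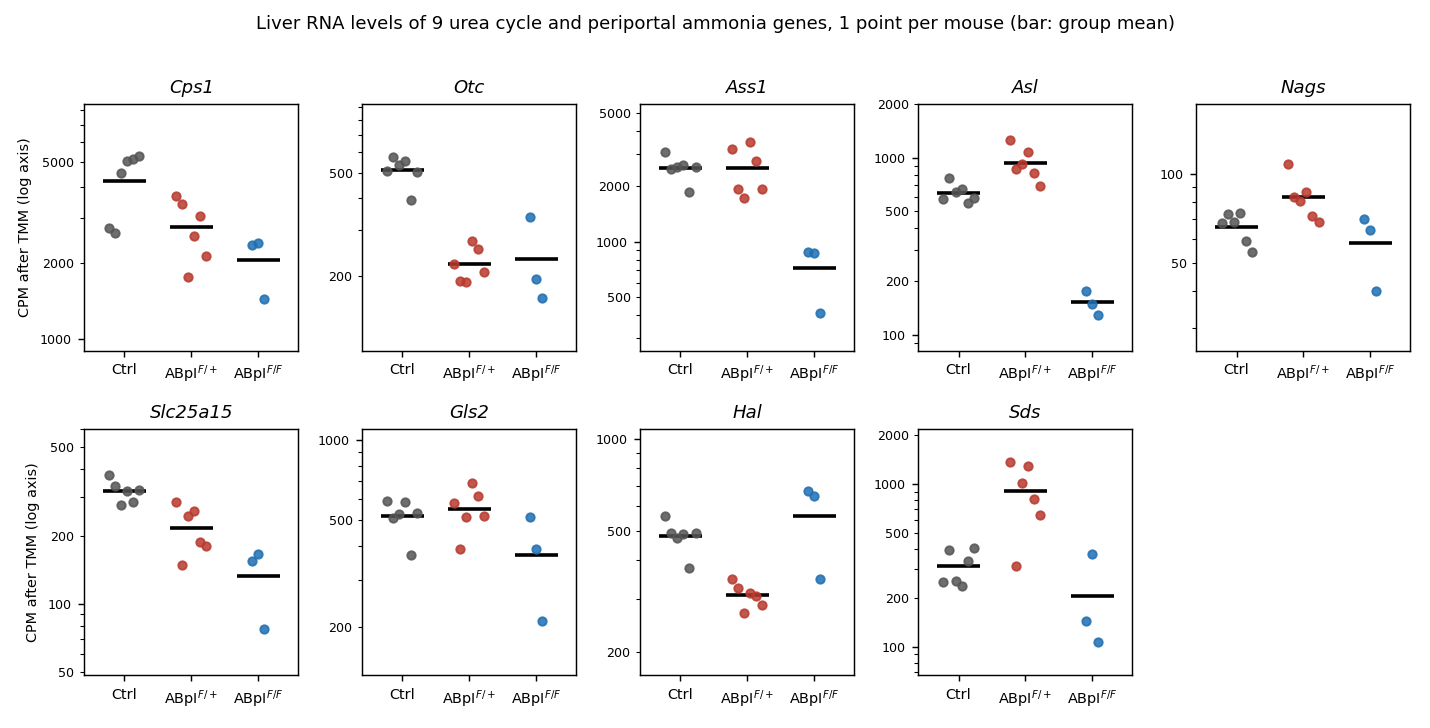
RNA level of each of the 9 genes in every mouse, as CPM after TMM scaling on a log axis, for 6 Ctrl, 6 ABpI F/+ and 3 ABpI F/F mice, with a bar at the group mean. All *Asl* values of ABpI F/F mice, from 129.7 to 177 CPM, lie below those of the other groups, and all *Hal* values of ABpI F/+ mice, from 269 to 348 CPM, lie below those of Ctrl mice.

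The cycle begins in mitochondria. *Nags* makes N-acetylglutamate, without which carbamoyl phosphate synthetase is inactive. *Nags* had from 54.3 CPM over a median of 68.3 to 73.3 in Ctrl and from 68.5 over 82.2 to 108 in ABpI F/+ mice, and 70.5, 64.3 and 40.2 in ABpI F/F mice 1, 2 and 3. The groups overlapped, and *Nags* passed in no comparison (log2 fold change 0.33 ± 0.14 (SE) in ABpI F/+ livers and -0.18 ± 0.17 in ABpI F/F livers against Ctrl, and 0.51 ± 0.17 between them, with edgeR adjusted p of 0.0827, 0.632 and 0.0399). Without ABpI F/F mouse 3 the ABpI F/F difference turned to 0.03. Of its 2028 exon bases, 443 overlap an exon of *Gm11586* on the opposite strand, a gene not in the table.

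*Cps1* encodes carbamoyl phosphate synthetase, which brings ammonia into the cycle. Ctrl mice ranged from 2617 CPM over a median of 4788 to 5279.8, ABpI F/+ mice from 1765 over 2812 to 3683, and ABpI F/F mice 1, 2 and 3 had 2362, 2387 and 1441. Ctrl mice 1 and 2, at 2745 and 2617 CPM, lay far below the other 4 Ctrl mice and within the range of ABpI F/+ mice, while all ABpI F/F mice lay below all Ctrl mice. The log2 fold change was -0.61 ± 0.22 (SE, adjusted p = 0.0420) in ABpI F/+ and -1.03 ± 0.28 (adjusted p = 0.0107) in ABpI F/F livers against Ctrl, and neither passed. The ABpI F/F value is near the threshold. With DESeq2 (-1.04), with genes of low counts removed (-1.08), with the newer quasi-likelihood form of edgeR (-1.03), with the threshold for the adjusted p at 0.05 (-1.03), and without Ctrl mouse 1 (-1.13), Ctrl mouse 2 (-1.14) or ABpI F/+ mouse 3 (-1.03), *Cps1* passed in that comparison. It moved away from the threshold without ABpI F/F mouse 3 (-0.83, adjusted p = 0.0924), without Ctrl mouse 4 (-0.98), 5 (-0.97) or 6 (-0.96), and with the clock score in the fit (-0.70). With the strain label in the fit, so that Ctrl mouse 2 alone stands for Ctrl, the ABpI F/+ difference turned to 0.08 and the ABpI F/F difference was -0.34.

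*Otc*, on the X chromosome, encodes ornithine transcarbamylase, which joins carbamoyl phosphate to ornithine. Its CPM ran from 392 over a median of 522 to 576 in Ctrl and from 189 over 214 to 272 in ABpI F/+ mice, and was 336, 194 and 164 in ABpI F/F mice 1, 2 and 3. No ABpI F/+ or ABpI F/F mouse reached the lowest Ctrl mouse. *Otc* fell 2.30-fold in ABpI F/+ livers (log2 fold change -1.20 ± 0.16, adjusted p = 5.06e-06) and likewise in ABpI F/F livers (-1.15 ± 0.21, adjusted p = 0.000315). The ABpI F/F call was lost without ABpI F/F mouse 3, where the log2 fold change was -0.95, and with the clock score in the fit, where it was -1.01. Between ABpI F/+ and ABpI F/F livers the difference was -0.06 ± 0.20 (adjusted p = 1), and without ABpI F/F mouse 1 it was 0.31.

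*Slc25a15* carries ornithine into mitochondria in exchange for citrulline. Ctrl mice ranged from 276 CPM over a median of 319 to 376, ABpI F/+ mice from 149 over 218 to 285, and ABpI F/F mice 1, 2 and 3 had 155, 166 and 77.0. ABpI F/+ mice overlapped Ctrl at their upper end, and the ABpI F/F mice lay below all Ctrl mice. *Slc25a15* fell 2.40-fold in ABpI F/F livers (log2 fold change -1.26 ± 0.23, adjusted p = 0.000367), while the difference of ABpI F/+ livers from Ctrl was -0.54 ± 0.18 (adjusted p = 0.0260) and that between ABpI F/+ and ABpI F/F livers 0.72 ± 0.22 (adjusted p = 0.0274). The call was lost without ABpI F/F mouse 3, at -0.99. With the strain label in the fit, where Ctrl mouse 2 alone stands for Ctrl, the difference was -1.33 (adjusted p = 0.0152), larger than in the main fit, and was not called.

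In the cytosol, *Ass1* encodes argininosuccinate synthase, which joins citrulline to aspartate. The gene had from 1867 CPM over a median of 2543 to 3054 in Ctrl and from 1716 over 2343 to 3477 in ABpI F/+ mice, and 877, 862 and 409 in ABpI F/F mice 1, 2 and 3. Ctrl and ABpI F/+ mice overlapped over nearly their whole range, and every ABpI F/F mouse lay below every other mouse. *Ass1* fell 3.51-fold in ABpI F/F livers against Ctrl (log2 fold change -1.81 ± 0.27, adjusted p = 4.72e-05) and was 3.49-fold higher in ABpI F/+ than in ABpI F/F livers (1.80 ± 0.27, adjusted p = 8.40e-05), with -0.01 ± 0.20 (adjusted p = 1) in ABpI F/+ livers against Ctrl, which ran from -0.12 to 0.08 over the mice left out. Reads of *Ass1* may be shared with *Gm5424* (Entrez 432466), a transcribed argininosuccinate synthase pseudogene at chr10:62071022-62072571 (GRCm38). Of the 1210 words of 31 bases in its transcript, 84.7% also occur in transcripts of *Ass1*, and it held from 16.9% to 21.1% of the counts of both genes in each mouse. How such reads were divided is not given in the sources used here, so the level of *Ass1* is uncertain to that extent. With the counts of both genes summed, an alternative chosen after seeing the data, *Ass1* passed in the same 2 comparisons.

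*Asl* encodes argininosuccinate lyase, which splits argininosuccinate into arginine and fumarate. It had from 555 CPM over a median of 617 to 765 in Ctrl mice, from 695 over 891 to 1253 in ABpI F/+ mice, and 177, 149.9 and 129.7 in ABpI F/F mice 1, 2 and 3. The ABpI F/F values were close together and far below all others, whereas the lowest ABpI F/+ mouse lay within the Ctrl range. *Asl* fell 4.17-fold in ABpI F/F livers (log2 fold change -2.06 ± 0.20, adjusted p = 1.50e-07) and was 6.16-fold higher in ABpI F/+ than in ABpI F/F livers (2.62 ± 0.21, adjusted p = 1.25e-07). In ABpI F/+ livers against Ctrl the difference of 0.56 ± 0.15 had an adjusted p of 0.00561 and was under 2-fold. The *Asl* and *Ass1* calls held without each mouse in turn and in every other fit run for these comparisons.

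Summed over *Cps1*, *Otc*, *Ass1* and *Asl*, these enzymes had 7884 ± 1029.5 CPM (SD, n = 6 mice) in Ctrl, 6427 ± 1436 (n = 6) in ABpI F/+ and 3163 ± 886 (n = 3) in ABpI F/F livers. ABpI F/F mouse 3 had the lowest level of the 3 ABpI F/F mice for 9 of the 9 genes, and the lowest of all 15 mice for 8 of them.

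**Figure D2:**
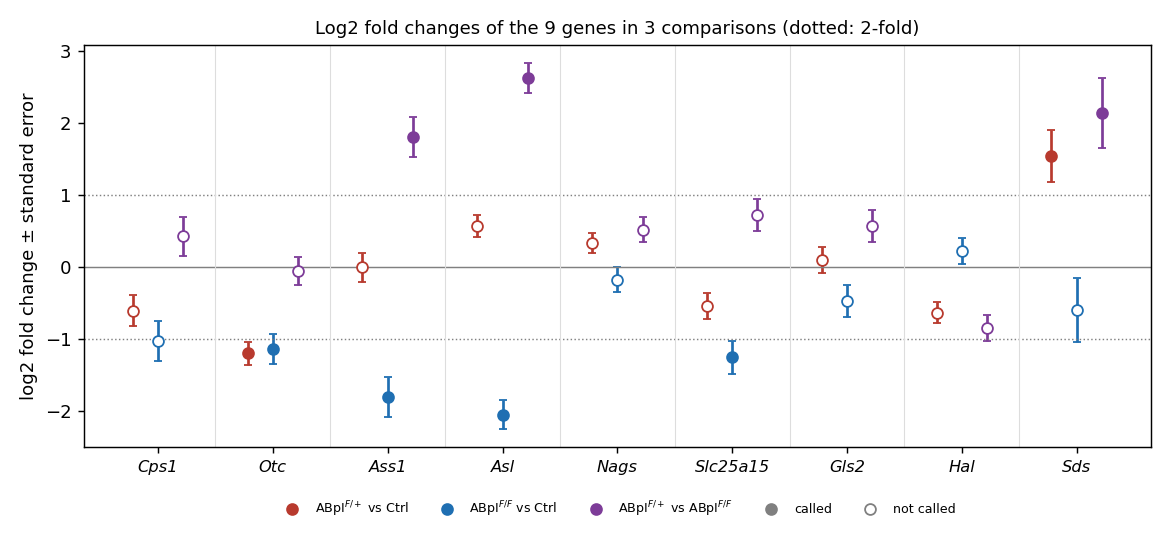
Log2 fold changes of the 9 genes with their standard errors in 3 comparisons among 6 Ctrl, 6 ABpI F/+ and 3 ABpI F/F mice, where filled points passed both thresholds (adjusted p under 0.01 and a 2-fold difference). *Asl* lies at -2.06 in ABpI F/F livers against Ctrl and at 2.62 between ABpI F/+ and ABpI F/F livers, and *Otc* lies at -1.20 and -1.15 in the comparisons with Ctrl.

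Among the genes that feed ammonia to the cycle, *Sds* encodes serine dehydratase, which turns serine into pyruvate and ammonia. It had from 236 CPM over a median of 296 to 408 in Ctrl and from 316 over 916 to 1373 in ABpI F/+ mice, and 144, 371 and 107 in ABpI F/F mice 1, 2 and 3. Of the 6 ABpI F/+ mice, mouse 2, at 316 CPM, lay within the Ctrl range and the other 5 lay above it, and ABpI F/F mouse 2 lay within the Ctrl range as well. *Sds* rose 2.90-fold in ABpI F/+ livers against Ctrl (log2 fold change 1.53 ± 0.36, adjusted p = 0.00468) and was 4.39-fold higher in ABpI F/+ than in ABpI F/F livers (2.13 ± 0.48, adjusted p = 0.00578), with -0.60 ± 0.44 (adjusted p = 0.483) in ABpI F/F livers against Ctrl. That last value hung on single ABpI F/F mice: it was -1.32 (adjusted p = 0.0534) without mouse 2 and -0.29 (adjusted p = 1) without mouse 3, and it was -1.24 with the clock score in the fit. The spread among ABpI F/+ mice was wide, and both calls lay near the threshold of the adjusted p. Against Ctrl the call was lost without Ctrl mouse 1, 3, 4 or 5 or ABpI F/+ mouse 1, 3 or 4, at log2 fold changes between 1.38 and 1.56 and adjusted p between 0.0108 and 0.0131, and with the strain label in the fit, where Ctrl mouse 2 alone stands for Ctrl, at 1.21. Between ABpI F/+ and ABpI F/F livers it was lost without ABpI F/+ mouse 1, 3 or 4 or ABpI F/F mouse 1 or 3, at 1.82 to 2.10, in a fit of these groups alone (2.12) and with the clock score in the fit (2.69). Of the 1288 exon bases of *Sds*, 141 overlap an exon of *Gm15690* on the opposite strand, a gene not in the table. A further gene on the opposite strand, *Plbd2*, which had a mean of 87.8 CPM, has exons that overlap 360 of the bases. The strand setting of the counting is not given in the sources used here, so reads in the overlap with *Plbd2* cannot be assigned to either gene.

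*Hal* encodes histidine ammonia-lyase, which removes ammonia from histidine. It had from 377 CPM over a median of 488 to 558 in Ctrl and from 269 over 309 to 348 in ABpI F/+ mice, and 673, 649 and 347 in ABpI F/F mice 1, 2 and 3. All ABpI F/+ mice lay below all Ctrl mice, and ABpI F/F mice 1 and 2 lay above all others, while ABpI F/F mouse 3 lay below all Ctrl mice. The log2 fold change of ABpI F/F livers against Ctrl was 0.22 (edgeR adjusted p = 0.548) and did not pass. The log2 fold change of -0.64 ± 0.15 in ABpI F/+ livers against Ctrl (adjusted p = 0.00223) and that of -0.85 ± 0.18 between ABpI F/+ and ABpI F/F livers (adjusted p = 0.00143) were under 2-fold and so not called. Without ABpI F/F mouse 3 the latter was -1.10 and passed. *Gls2*, the liver form of glutaminase, which releases ammonia from glutamine, passed in no comparison. It had from 369.7 CPM over a median of 530.0 to 589 in Ctrl and from 389.9 over 548 to 687 in ABpI F/+ mice, and 514, 392 and 211 in ABpI F/F mice 1, 2 and 3, and the groups overlapped. Exons of *Gls2* and of *Spryd4* on the opposite strand share 32 of the 2573 exon bases of *Gls2*.

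Levels of different genes can be compared only per length. Per kilobase of exon (GENCODE M21), *Ass1* had the highest mean level in Ctrl livers, 1482 CPM per kb, then *Cps1* with 761, *Sds* with 244, *Asl* with 213, *Gls2* with 202, *Otc* with 121, *Slc25a15* with 92.7, *Hal* with 90.1 and *Nags* with 32.6. In ABpI F/+ livers *Ass1* led with 1473 CPM per kb, and *Sds* with 706 stood above *Cps1* with 498. In ABpI F/F livers *Ass1* had 422 CPM per kb and *Cps1* 371, and *Asl* with 51.1 stood below *Hal* with 105. These orders were not tested. The annotation used for counting is not given in the sources used here, so the exon lengths may differ from those that were counted.

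In the comparisons with Ctrl, the strain label and the group cannot be told apart, except through Ctrl mouse 2. Every ABpI F/+ and ABpI F/F mouse has the same label. Against the range of the other 5 Ctrl mice, Ctrl mouse 2 was lower for *Cps1* and higher for *Otc* and *Asl*, and lay within the range for the other 6 members. Its *Otc*, 576 CPM, was above every ABpI F/+ and ABpI F/F mouse. Time of day could also differ between mice. A score of clock genes is high where *Npas2*, *Clock*, *Cry1* and *Nfil3* are high and *Dbp*, *Nr1d1*, *Nr1d2*, *Per3*, *Tef* and *Ciart* are low. It was 2.17 in Ctrl mouse 1 and between -1.33 and -0.51 in the other Ctrl mice. ABpI F/+ mice had between -1.03 and 0.04, and ABpI F/F mice 1, 2 and 3 had 0.59, 3.28 and 1.55. With this score in the fit, 3 members passed in ABpI F/F livers against Ctrl, without *Otc*, beside 3.76% of all genes, and 2 between ABpI F/+ and ABpI F/F livers, without *Sds*, beside 3.77%. Every ABpI F/F mouse had a higher score than all mice of the other groups except Ctrl mouse 1. A fit with the score can therefore also remove part of the group difference itself.

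Markers of the other cell types of the liver also differed between the groups, and their part in the results for the 9 genes was not tested. Of 9 hepatocyte markers, *Apoa1* rose and *Cyp8b1* fell in ABpI F/+ livers, and *Apoa1* and *Fga* rose and *Cyp8b1* fell in ABpI F/F livers. Their summed level was between 103955 and 143925 CPM in Ctrl, 183983 and 261925 in ABpI F/+, and 142896 and 238529 in ABpI F/F mice. Of 9 cholangiocyte markers, 2 rose and 1 fell in ABpI F/+ and 6 rose in ABpI F/F livers, with summed levels between 91.1 and 119 CPM in Ctrl, between 106 and 219 in ABpI F/+, and of 277, 856 and 1236 in ABpI F/F mice 1, 2 and 3. Most of the ABpI F/F sums came from *Spp1*, which had 175, 724 and 1081 CPM in these mice, and the other 8 markers together had 101.5, 132 and 155, against 55.9 to 61.8 in Ctrl and 87.9 to 108 in ABpI F/+ mice. Of 6 neutrophil markers, 0 rose in ABpI F/+ livers, and 5 rose in ABpI F/F livers, where their sum was 4.73, 28.9 and 84.3 CPM in mice 1, 2 and 3 against at most 4.17 in Ctrl and 7.22 in ABpI F/+ mice. *Ly6g* was at 0 in all Ctrl mice, in ABpI F/+ mice 2, 3, 4, 5 and 6, and in ABpI F/F mice 1 and 2.

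Of 14 macrophage markers, 2 rose and 7 fell in ABpI F/+ livers, and 2 rose and 0 fell in ABpI F/F livers, with mean summed levels of 428 ± 53.1 CPM (SD, n = 6 mice) in Ctrl, 210.1 ± 48.4 (n = 6) in ABpI F/+ and 528 ± 200.5 (n = 3) in ABpI F/F mice. Of 10 stellate cell and fibroblast markers, 8 fell in ABpI F/+ and 1 rose in ABpI F/F livers, and the sum was 249 ± 25.3, 86.2 ± 25.6 and 320.1 ± 78.4 CPM. Of 8 endothelial markers 2 fell in ABpI F/+ and 1 rose in ABpI F/F livers, with sums of 243 ± 38.3, 150.0 ± 52.3 and 251 ± 46.9 CPM. Of 10 lymphocyte markers 3 fell in ABpI F/+ and 1 rose in ABpI F/F livers, at sums of 5.90 ± 1.24, 2.30 ± 0.837 and 9.95 ± 5.69 CPM. Of 6 proliferation genes 5 fell in ABpI F/+ and 0 were called in ABpI F/F livers, of 5 erythroid genes *Hba-a1* rose in ABpI F/+ livers, and of 8 pancreas genes 0 were called against Ctrl. ABpI F/F mouse 3, lowest of the ABpI F/F mice for the 9 genes, had the highest sums of all 15 mice for cholangiocyte, neutrophil, macrophage (709 CPM), lymphocyte (16.5), stellate cell and fibroblast (403) and proliferation genes (22.1). Its endothelial sum, 236 CPM, lay within the Ctrl range of 201 to 293. The sum of hepatocyte markers in this mouse, 142896 CPM, was the lowest among the ABpI F/F mice but lay within the Ctrl range of 103955 to 143925.

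A ratio of counts within a mouse does not depend on library scaling. The ratio of *Glul* to *Gls2*, which sets glutamine synthesis against glutamine breakdown, was compared over the 3 pairs of groups by exact permutation of mice, with p values adjusted over 9 tests. The smallest p the test can give is 0.00216 for 6 against 6 mice and 0.0119 for 6 against 3. *Glul* had from 861 CPM over a median of 1106 to 1233 in Ctrl and from 185 over 241 to 307 in ABpI F/+ mice, and 222, 283 and 56.3 in ABpI F/F mice 1, 2 and 3, so no ABpI F/+ or ABpI F/F mouse came near Ctrl. The mean log2 ratio to *Gls2* was 1.08 ± 0.35 (SD, n = 6 mice) in Ctrl, -1.18 ± 0.57 (n = 6) in ABpI F/+ and -1.20 ± 0.72 (n = 3) in ABpI F/F mice. The ratio was 4.78-fold lower in ABpI F/+ (log2 difference -2.26, both tails, exact p = 0.00216, adjusted 0.0195) and 4.85-fold lower in ABpI F/F mice (-2.28, exact p = 0.0119, adjusted 0.0357) than in Ctrl, in every mouse of either group. Both p values are the smallest that the test can give, so they do not grade the size of the difference. With a mouse of either group left out, the log2 difference of ABpI F/F from Ctrl stayed between -2.64 and -1.92 and p again was the smallest possible, 0.0179 for 5 against 3 mice and 0.0357 for 6 against 2. The adjusted p then exceeded 0.05 without any of the 3 ABpI F/F mice and without Ctrl mouse 1, 2, 4 or 6, while p itself could not have been lower. For differences of medians, no adjusted p of the exact test was under 0.05.

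Genes of neighbouring steps were described by lists. Of 20 transporters of ammonia, ornithine and related amino acids, 2 rose and 2 fell in ABpI F/+ livers against Ctrl (median log2 fold change -0.03) and 2 rose and 6 fell in ABpI F/F livers (median -0.43). *Slc25a13*, the aspartate-glutamate carrier that supplies aspartate to *Ass1*, fell 2.71-fold in ABpI F/F livers (log2 fold change -1.44) and had -0.75 in ABpI F/+ livers, which did not pass. *Slc25a22*, a mitochondrial glutamate carrier, fell in both (-1.20 and -1.38), and so did *Rhbg*, an ammonia channel of pericentral hepatocytes (-3.19 and -1.89). *Slc38a4*, an amino acid transporter, fell in ABpI F/F livers (-1.51) and was lower there than in ABpI F/+ livers (1.30). Of 4 genes for bicarbonate supply and mitochondrial sirtuins, *Car5a*, the mitochondrial carbonic anhydrase that supplies *Cps1* with bicarbonate, fell from 63.4 CPM to 11.2 in ABpI F/+ (log2 fold change -2.50) and 19.4 in ABpI F/F livers (-1.71), and *Car5b* fell in ABpI F/+ livers (-1.25). The median of these 4 was -0.84 and -0.60.

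Of 21 enzymes of ornithine, arginine and proline metabolism, 0 rose and 5 fell in ABpI F/+ livers (median -0.52), and 1 rose and 6 fell in ABpI F/F livers (median -0.26). *Oat*, ornithine aminotransferase, fell from 1014 CPM to 311 in ABpI F/+ (log2 fold change -1.71) and 134 in ABpI F/F livers (-2.92). *Prodh*, proline dehydrogenase, fell in ABpI F/F livers (-2.37) and was higher in ABpI F/+ than in ABpI F/F livers (2.00), and *Aldh18a1*, the enzyme that starts proline and ornithine synthesis from glutamate, was the gene of this list that rose in ABpI F/F livers (2.11). *Gatm*, the arginine:glycine amidinotransferase of creatine synthesis, fell in ABpI F/+ livers (-1.91) and had 0.03 in ABpI F/F livers. Of 11 enzymes of glutamate, glutamine and transamination, 2 rose and 1 fell in ABpI F/+ livers (median 0.53) and 1 rose and 2 fell in ABpI F/F livers (median -0.32). *Asns*, asparagine synthetase, rose from 0.774 CPM to 35.3 in ABpI F/+ livers (5.46) and to 15.5 in ABpI F/F livers (4.28). *Gpt2*, the mitochondrial alanine transaminase, fell in ABpI F/F livers (-1.02), and *Gpt2*, *Gpt* and *Got1* were higher in ABpI F/+ than in ABpI F/F livers (1.62, 1.19 and 2.49).

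Of 17 genes for the breakdown of histidine, serine and glycine, 1 rose and 3 fell in ABpI F/+ livers (median -0.30), and 0 rose and 4 fell in ABpI F/F livers (median -0.63). *Sdsl*, a relative of *Sds*, rose in ABpI F/+ livers (1.90) and was higher there than in ABpI F/F livers (1.53). *Uroc1*, *Amdhd1* and *Ftcd*, which act after *Hal*, were not called in any comparison. Of 22 transcription factors and hormone receptors known to act on urea cycle genes, *Ppargc1a*, a coactivator induced by fasting, rose in ABpI F/+ livers (1.43) and *Creb3l3* fell (-1.13), and *Creb3l3* (-1.07) and *Ppara* (-1.66) fell in ABpI F/F livers, so that in the comparison of each group with Ctrl 20 of the 22 were not called. Among those not called, *Hnf4a* had 0.51 and -0.21, *Cebpa* -0.49 and -0.22, *Gcgr*, the glucagon receptor, -0.02 and -0.20, and *Cebpb* -0.29 and -1.76. The medians of the list were -0.05 and -0.17. Between ABpI F/+ and ABpI F/F livers, 3 of the 22 were higher in ABpI F/+ and 0 were lower, with a median of 0.15.

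The 9 genes were set beside other genes of the same zone. Of 18 other periportal genes in the table, 3 rose and 5 fell in ABpI F/+ (median log2 fold change -0.01) and 3 rose and 6 fell in ABpI F/F livers (median -0.39). *Cyp2f2* (-4.91 and -3.61) and *Sult5a1* (-5.31 and -5.06) fell in both and *Hsd17b13* rose in both (2.35 and 1.23). *Pck1*, the enzyme that starts gluconeogenesis, had 0.40 in ABpI F/+ and fell in ABpI F/F livers (-1.70). Of 25 pericentral genes, 16 fell in ABpI F/+ (median -1.52) and 15 in ABpI F/F livers (median -1.84), and 0 rose in either. *Cyp2e1* (-1.35 and -2.31) and *Cyp1a2* (-3.25 and -2.47) were among them, as were *Glul* (-2.15 and -2.55), *Oat* and *Rhbg*, which are in other lists too. Of 19 fasting and glucagon response genes, 4 rose and 5 fell in ABpI F/+ livers (median 0.40) and 1 rose and 8 fell in ABpI F/F livers (median -0.56). *Igfbp1* rose in both (5.45 and 3.85), and *Tat*, tyrosine aminotransferase, rose in ABpI F/+ (1.06) and fell in ABpI F/F livers (-1.81). Between ABpI F/+ and ABpI F/F livers, 5 fasting genes were higher in ABpI F/+ and 0 lower, with a median of 1.36, and *Tat* differed by 2.86. Of 4 clock genes that are high at the same time of day, 1 rose in ABpI F/+ and 0 were called in ABpI F/F livers. Among them, *Npas2* had at most 0.310 CPM in ABpI F/+ mice and 6.92, 14.0 and 8.12 in ABpI F/F mice 1, 2 and 3. It had 3.80 CPM in Ctrl mouse 1 and at most 0.373 in the other Ctrl mice. Of 6 clock genes that are low then, 0 fell in ABpI F/+ livers while 3 fell in ABpI F/F livers, with *Ciart* at -4.49 in ABpI F/F livers. The clock gene *Nr1d1*, which is in this list and in the clock score, was not low in ABpI F/F mice 1, 2 and 3. It had 199, 73.7 and 90.5 CPM there against 69.7 to 113.9 in Ctrl.

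**Figure D3:**
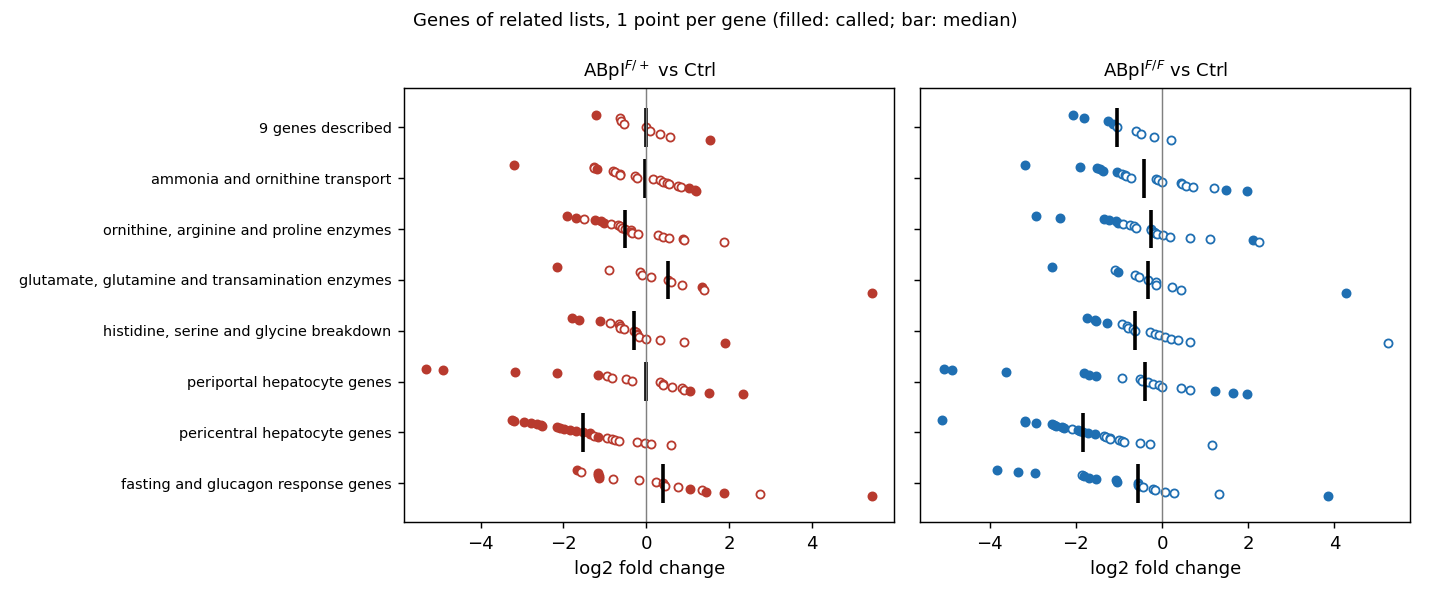
Log2 fold changes of the genes of 8 lists in ABpI F/+ (left) and ABpI F/F livers (right) against Ctrl, 1 point per gene, filled where the gene was called, with a bar at the list's median. The pericentral list lies furthest to the left, with medians of -1.52 and -1.84.

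The genes with the most alike pattern over the 15 mice were found among 9567 other genes whose mean reached 5 CPM, by the root mean square difference of log2 CPM centred on each gene's mean. Nearest to *Ass1* was *Gm5424* (0.10), then *Gnmt* (0.30) and *Aass* (0.33), and nearest to *Asl* were *Ahcy* (0.32), *Por* (0.35) and *Gde1* (0.36). *Otc* was most alike to *Maob* (0.14), *Hibadh* (0.16) and *Ugt2b36* (0.16), and *Slc25a15* to *Cycs* (0.19), *Atp5mc1* (0.20) and *Gcdh* (0.21). *Sds* was followed by *Got1* (0.34), *Zpr1* (0.48) and a gene without a symbol (Entrez 100862380, 0.51). *Cps1* had *Prkaa2* (0.21), *Sox6* (0.26) and *Prkar2a* (0.26) nearest, *Nags* had *Hpn* (0.11), *Pum3* (0.15) and *Tesk2* (0.15), *Gls2* had *Dnajc30* (0.20), *Cyp2r1* (0.20) and *Acy1* (0.21), and *Hal* had *Gjb1* (0.20), *Pgghg* (0.21) and *Pigr* (0.21). Among the members themselves, *Gls2* and *Nags* were closest (0.29), *Ass1* and *Asl* differed by 0.44, and *Otc* and *Sds* were furthest apart (1.37).

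*Otc* lies on the X chromosome and the other 8 genes on autosomes, with *Gls2* and *Hal* on chromosome 10 and *Asl* and *Sds* on chromosome 5. RefSeq promoter entries of GRCm38.p6, 300 bases each around a transcription start, were found for 5 of the 9, *Otc*, *Ass1*, *Nags*, *Slc25a15* and *Hal*. Entries for *Cps1*, *Asl*, *Gls2* and *Sds* were not in the table. The entries were searched on both strands for CACGTG (E-box), TGACGTCA (cAMP response element), TTGCNNAA (C/EBP), AAAGTNCA (HNF4) and TATAAA (box of core promoters), which occur in 7.15%, 1.79%, 10.8%, 4.12% and 13.6% of all 32851 promoter entries. The entries of *Otc*, *Ass1* and *Slc25a15* are shown because these genes fell in ABpI F/F livers, with matches in capitals: HNF4 in *Otc* and E-box in the others. *Otc* is at chrX:10252055-10252354 on the plus strand, *Ass1* at chr2:31470020-31470319 on the plus strand and *Slc25a15* at chr8:22398228-22398527 on the minus strand.
Otc: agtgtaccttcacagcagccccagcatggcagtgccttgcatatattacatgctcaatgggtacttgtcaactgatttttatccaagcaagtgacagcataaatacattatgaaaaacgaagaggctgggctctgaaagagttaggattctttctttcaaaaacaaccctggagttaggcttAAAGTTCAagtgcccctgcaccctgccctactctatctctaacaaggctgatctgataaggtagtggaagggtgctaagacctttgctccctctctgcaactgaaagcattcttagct
Ass1: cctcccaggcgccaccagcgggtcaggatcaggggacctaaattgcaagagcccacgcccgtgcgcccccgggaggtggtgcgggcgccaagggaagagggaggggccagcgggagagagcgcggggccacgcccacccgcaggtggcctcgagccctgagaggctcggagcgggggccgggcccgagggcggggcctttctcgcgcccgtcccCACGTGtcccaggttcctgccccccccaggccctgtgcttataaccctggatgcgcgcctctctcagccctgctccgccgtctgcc
Slc25a15: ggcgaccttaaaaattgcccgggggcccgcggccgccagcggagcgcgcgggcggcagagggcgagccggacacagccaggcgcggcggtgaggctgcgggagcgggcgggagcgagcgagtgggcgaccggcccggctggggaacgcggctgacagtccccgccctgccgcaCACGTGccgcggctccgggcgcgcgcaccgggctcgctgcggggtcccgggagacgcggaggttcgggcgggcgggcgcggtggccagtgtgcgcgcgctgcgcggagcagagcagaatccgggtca

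A further *Slc25a15* entry at chr8:22398572-22398871 and the *Nags* entry at chr11:102145263-102145562 held none of the motifs, and the *Hal* entry at chr10:93488518-93488817 held a C/EBP match and a TATAAA match. No matches overlapped. A match describes letters only, and a missing match says only that these letters are not in the window, not whether a factor binds.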

How the data were processed

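Per the labels, RNA was isolated with Trizol from mouse liver and made into libraries with the Illumina Stranded mRNA Prep. The authors aligned the reads with HISAT2 (the labels write version 2.21) to mm10 and deposited counts per gene from featureCounts 2.0.8. The annotation and the strand setting are not given in the sources used here. The labels list 23 samples for 15 mice, 8 of them named by 2 samples, and the deposited tables hold 1 count column per mouse, so replicates are separate mice. The 10 mice found in both tables have equal counts there. A further 5 count columns and the 18 columns of the authors' own comparisons were not used.

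The 9 genes were matched by symbol, and 1319 of the 27179 genes have none. Counts were scaled by TMM and all 3 groups fitted together in edgeR 4.0.16 (R 4.3.3, limma 3.58.1) with the robust quasi-likelihood method, and p values were adjusted over all genes by the Benjamini-Hochberg method. The threshold was an adjusted p under 0.01 with a log2 fold change of 1 or more in size. The standard error of a log2 fold change was derived from the F statistic of its test, as the size of the log2 fold change divided by the square root of F. The ratio had 0.5 added to each count and was compared by exact permutation in 3 comparisons, adjusted over the 9 ratio tests planned. Other planned ratios, and some genes of the chosen set and of the lists, were part of the adjustments and are not reported here. The edgeR and permutation steps were tested on simulated data. The members and the lists were chosen with earlier results of these data known. Genes named are the 9 members, *Icmt*, *Braf*, *Trp53* and *Alb* as checks, genes of the lists with called and abundant ones preferred, and for each member the 3 genes with the most alike pattern. *Gm5424* was added as a copy of *Ass1*. *G6pc*, *Arntl*, *Tf* and *Hbb-bt* of the lists were not found in the table.

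Alternatives were RLE and upper quartile scaling, the DESeq2 1.42.0 Wald test, removal of genes with low counts, the edgeR 4 form of the quasi-likelihood method, no robust estimation, other thresholds, fits of only the groups compared, each mouse left out, the clock score or the strain label in the fit, and, chosen after seeing the data, *Ass1* and *Gm5424* summed. For the ratio they were 5 added to each count, medians, and each mouse left out.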

Additional observations from a re-analysis of the deposited data

Results flagged for a closer look

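A mouse was picked out where its gap to the nearest mouse was a large share of its group's range, a rule that by chance picks about 1 in 20 groups, and 30 groups were looked at. Ctrl mouse 5 had 369.7 CPM of *Gls2*, below the nearest Ctrl mouse at 510.0 CPM. Ctrl mouse 1 had a clock score of 2.17, above the nearest Ctrl mouse at -0.51. The effect against Ctrl differed between ABpI F/+ and ABpI F/F livers, as tested by edgeR between these groups, by a log2 fold change of 1.80 for *Ass1*, 2.62 for *Asl* and 2.13 for *Sds*.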

How the results depend on the processing

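Under the alternatives 657 log2 fold changes of members kept direction and side of the threshold, 19 became weaker, 11 stronger and 9 reversed. With each mouse left out, 1 to 2 members passed for ABpI F/+ against Ctrl (9.29% to 10.2% of all genes), 2 to 5 for ABpI F/F against Ctrl (4.46% to 8.37%), and 2 to 3 between them (4.25% to 7.54%). In ABpI F/+ against Ctrl, 4 passed at any fold change (18.4% of all genes) and 1 with the strain label in the fit (4.99%), where Ctrl mouse 2 alone stands for Ctrl. In ABpI F/F against Ctrl, 2 passed without ABpI F/F mouse 3 (4.46%).

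In ABpI F/+ against Ctrl, *Ass1* ran from -0.12 to 0.0790 over the mice left out and was 0.0161 with the strain label, where *Cps1* was 0.0811 and *Sds* 1.21. *Sds* ran from 1.38 to 1.71 over the mice left out. In ABpI F/F against Ctrl, *Otc* ran from -1.52 to -0.95 and was -1.01 with the clock score, *Slc25a15* ran from -1.46 to -0.99 and was -1.33 with the strain label, and *Nags* ran from -0.34 to 0.0295. Between ABpI F/+ and ABpI F/F, *Otc* ran from -0.25 to 0.31, and *Sds* from 1.82 to 2.86, with 2.12 for only these groups and 2.69 with the clock score.

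For *Glul* per *Gls2*, medians gave -2.27 and -2.32 against Ctrl, and leaving out mice -2.64 to -1.92 in ABpI F/F against Ctrl and -0.33 to 0.38 between ABpI F/+ and ABpI F/F. The cause was not tested.

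No paired analysis was possible because the replicate numbers follow only the order in the list. Limits are 3 ABpI F/F mice, a strain label shared by Ctrl mouse 2 alone with the other groups, and whole tissue.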
